A study of Homo sapiens with 6 samples.

Results

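The integrated stress response was examined through ATF3 and 9 genes listed with it (ATF4, DDIT3, DDIT4, TRIB3, CHAC1, SESN2, ASNS, PPP1R15A and GDF15) in HK-2 cells, which derive from human kidney proximal tubule epithelium and grow as a permanent line. The set was chosen by the measured level of ATF3, which was lower in the comparison described here, and the other members were added as known factors and targets of the same response, with results of these data already known. The 10 gene names were carried by 11 of 38648 listed genes and gene copies, since SESN2 had a copy on a separate scaffold. A gene entered the test when its counts passed a filter on low values, and 10 of the 11 did so, among 15340 tested in all. The entry of SESN2 on chromosome 1 did not.

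The data were bulk RNA-seq libraries of 2 groups with 3 libraries each. IR+NC-LV cells carried a negative control lentivirus and IR+PR-LV cells a lentivirus that overexpresses PRDM16, a zinc finger transcriptional regulator. All 6 libraries came from irradiated cells, with 1 exposure of 8 Gy X-rays and collection on day 7, and from transduced cells selected with puromycin. Each library therefore had the radiation, the virus and the selection in common, and no unirradiated library was analysed here. The labels number the libraries of a group and do not say whether they were separate cultures, so that p-values measure the spread between these libraries, which may be technical.

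Total counts ranged from 13407074 (IR+NC-LV replicate 3) to 28540041 (IR+PR-LV replicate 2). The overexpressed gene served as a check of the labels. The control group had 2, 0 and 1 counts of PRDM16 and the overexpression group 14, 10 and 8, an 8.51-fold higher rate (95% exact interval 2.66 to 43.4, counting error only). No library overlapped with the other group, and the 2-sided exact permutation test gave p = 0.1, the smallest that 3 libraries against 3 allow. Of the epithelial markers, KRT8, KRT18, KRT19 and EPCAM were above 1 CPM (counts scaled to library size) on average and CDH1 was not. The proximal tubule markers GGT1, MME, AQP1, CUBN and PAX8 were also above that level, whereas SLC34A1 and ANPEP were below it and LRP2 had 3 counts in the 6 libraries together. The summed level of every marker list overlapped between the groups. The leukocyte list was at 88.5 to 106.4 CPM in IR+NC-LV and 82.1 to 90.6 CPM in IR+PR-LV, nearly all of it CD68, with PTPRC between 0 and 0.178 CPM. The fibroblast list was nearly all LUM, and no endothelial or distal nephron marker reached 1 CPM on average.

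In the integrated stress response, kinases that sense unfolded protein, amino acid shortage, double-stranded RNA or heme shortage phosphorylate the translation factor eIF2. General translation then slows while ATF4 mRNA is translated more, so that ATF4 protein can increase with little change in its mRNA. ATF4 is a basic leucine zipper (bZIP) factor that turns on amino acid enzymes and transporters together with ATF3 and DDIT3 (CHOP), while PPP1R15A (GADD34) brings phosphatase to eIF2 and ends the response. ATF3 is also known to respond to radiation and to kidney injury.

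Upstream sequences come first, because those of some members hold letters that ATF4 and its partners are known to bind. The RefSeq promoter table (GRCh38.p14) gave 16 start sites that cover all 10 members, and 250 bases before each were searched on both strands for 3 motifs. TGATGNAA, the composite of a C/EBP and an ATF site, was found before 3 of the 16 starts, in ATF3, ASNS and CHAC1, against 3.14% of 35116 promoters. TGACGT, the core of the cyclic AMP response element, was found before 1 start, that of PPP1R15A, against 7.1% of promoters. TGANTCA, the AP-1 motif, was found as TGACTCA before both listed starts of DDIT3, which share these bases, against 6.57% of promoters. No match lay in the windows of ATF4, DDIT4, TRIB3, SESN2 or GDF15. Listed exons covered 250 bases of each ATF4 window, 241 of the GDF15 window, 125 of each TRIB3 window, 66 of SESN2 and 0 of DDIT4. A match describes letters in a window, and binding was not measured in these data.

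The stretches that hold the composite motif and the cyclic AMP response element are printed with the matches in capitals, 5′ to 3′ on the strand of the gene. They cover the 250 bases before 1 start of ATF3 (chr1:212565157-212565406, plus strand), where the match begins 191 bases before the start, and the 250 bases before the start of PPP1R15A (chr19:48872171-48872420, plus strand), where matches begin 152, 58 and 56 bases before it. The last pair overlaps in TGACGTCA, with 1 match on each strand. The second ATF3 start in the table (first base 212615018) had no match. For ASNS a stretch of 67 bases outside its listed exons is shown (chr7:97872450-97872516, minus strand), where the match begins 68 bases before the start. For CHAC1 a stretch of 30 bases is shown (chr15:40953251-40953280, plus strand), which lies in a listed exon, with the match on the opposite strand 209 bases before the start.
ATF3: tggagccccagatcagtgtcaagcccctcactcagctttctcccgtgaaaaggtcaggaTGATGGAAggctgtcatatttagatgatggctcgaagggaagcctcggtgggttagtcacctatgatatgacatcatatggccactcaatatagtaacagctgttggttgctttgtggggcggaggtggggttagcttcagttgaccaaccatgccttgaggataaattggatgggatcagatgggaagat
PPP1R15A: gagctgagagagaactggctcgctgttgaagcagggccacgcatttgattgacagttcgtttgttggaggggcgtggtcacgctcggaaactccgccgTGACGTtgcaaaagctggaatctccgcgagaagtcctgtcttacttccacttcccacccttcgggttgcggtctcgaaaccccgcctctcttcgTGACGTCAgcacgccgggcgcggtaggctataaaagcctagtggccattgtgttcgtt
ASNS: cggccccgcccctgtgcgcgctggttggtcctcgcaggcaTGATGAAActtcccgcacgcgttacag
CHAC1: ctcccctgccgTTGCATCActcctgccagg

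ATF3 was the member that chose the set, and its values are a description without a test. ATF3 encodes a bZIP factor that is induced early in many kinds of stress and pairs with JUN and C/EBP proteins (chromosome 1, 212565407 to 212620777, plus strand, 3677 exon bases). It had 74.2, 62.3 and 98.4 CPM in IR+NC-LV replicates 1 to 3 and 30.7, 27.8 and 31.6 CPM in IR+PR-LV replicates 1 to 3. The lowest IR+NC-LV library stood above the highest IR+PR-LV library, and IR+NC-LV replicate 3 stood above the others of its group. The means were 78.3 ± 18.4 and 30.03 ± 2.01 CPM (SD, n = 3), a 2.60-fold lower level (log2 fold change −1.38, standard error 0.15). The values rest on 1246, 1313 and 1369 counts in IR+NC-LV and 516, 778 and 583 in IR+PR-LV. All 100-base stretches of its longest coding transcript occurred in no other annotated gene. Among all tested genes its log2 fold change was the 36th lowest. In these bulk libraries, fewer cells with the transcript and less transcript per cell cannot be told apart.

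**Figure D1:**
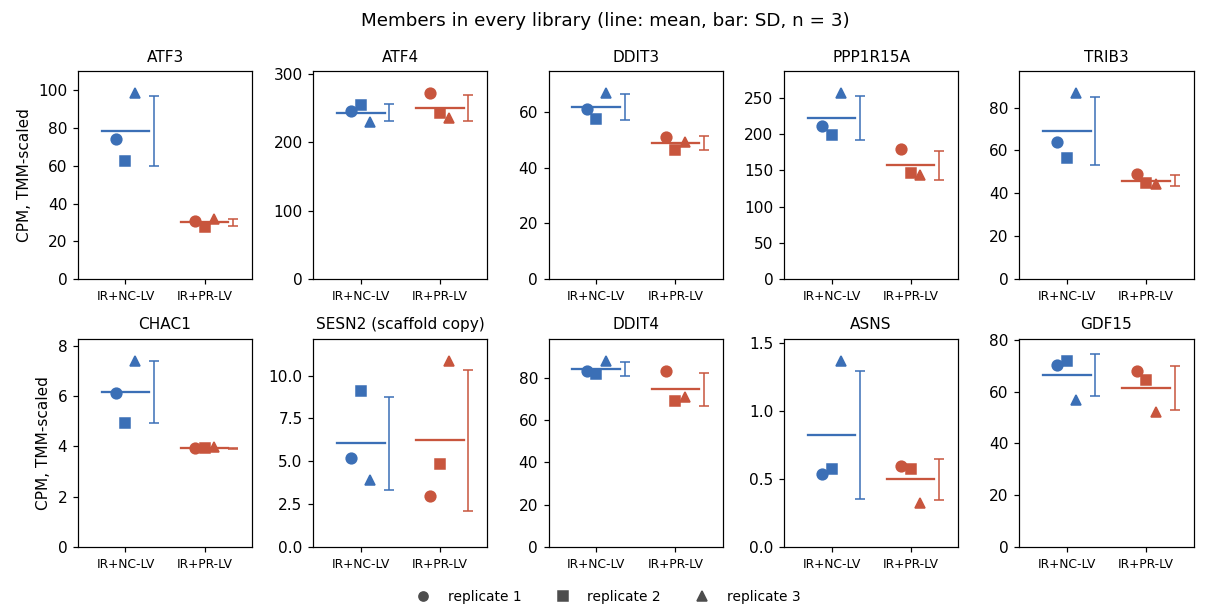
TMM-scaled CPM (vertical axes, each from 0) of the 10 members in the 6 libraries, with IR+NC-LV in blue and IR+PR-LV in red. Marker shapes give the replicate number, lines the group mean and bars the SD (n = 3). ATF3, DDIT3, PPP1R15A, TRIB3 and CHAC1 had every IR+PR-LV library below every IR+NC-LV library, and the other 5 members overlapped.

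ATF4, the factor at the head of the response, had nearly equal mRNA levels in the groups (chromosome 22, 39514494 to 39522686, plus strand). It had 246, 254 and 229 CPM in IR+NC-LV and 272, 242 and 236 CPM in IR+PR-LV, and the groups overlapped. The log2 fold change was 0.04 (standard error 0.07, edgeR adjusted p = 0.882), and the sign depended on single libraries (−0.000164 without replicate 3 of IR+NC-LV, −0.0248 without replicate 1 of IR+PR-LV). Of its 7716 exon bases, 3640 (47.2%) were shared with MIEF1 on the same strand, and MIEF1 itself was at 22.0 ± 1.52 and 23.4 ± 2.66 CPM (n = 3). ATF4 protein and eIF2 phosphorylation were not measured here.

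DDIT3 encodes CHOP, a bZIP factor that takes part in cell death under lasting endoplasmic reticulum stress (chromosome 12, 57516588 to 57520517, minus strand). It had 60.9, 57.5 and 66.8 CPM in IR+NC-LV and 51.1, 46.2 and 49.1 CPM in IR+PR-LV. The groups did not overlap, and the log2 fold change was −0.34 (standard error 0.08, edgeR adjusted p = 0.210). DESeq2 gave an adjusted p of 0.0405. Of its exon bases 68 (5.77%) were shared with MARS1 on the opposite strand, and the strand setting of the counting is not given in the sources used here. By transcript sequence the overlap was larger. Of 968 stretches of 100 bases in its transcript, 196 also occurred in AC022506.1 or MARS, and 79.75% occurred in no other annotated gene. The count of DDIT3 may therefore hold reads from these genes.

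PPP1R15A, the regulatory subunit that returns eIF2 to its unphosphorylated form, had the most counts per listed exon base of the members (chromosome 19, 48872421 to 48876058, plus strand). It had 212, 199 and 257 CPM in IR+NC-LV and 179, 147 and 144 CPM in IR+PR-LV, with no overlap. This corresponded to a log2 fold change of −0.50 (standard error 0.11, edgeR adjusted p = 0.192), the smallest adjusted p among the members other than ATF3. DESeq2 gave an adjusted p of 0.00201. PPP1R15B, its constitutive relative, stood at −0.17 on the log2 scale (standard error 0.07, edgeR adjusted p = 0.464).

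TRIB3, a pseudokinase that is a target of ATF4 and CHOP and restrains AKT and ATF4, lies on chromosome 20 (380760 to 397559, plus strand). It had 63.8, 56.4 and 86.7 CPM in IR+NC-LV and 48.9, 44.7 and 44.3 CPM in IR+PR-LV. The groups did not overlap, and IR+NC-LV replicate 3 stood above the rest. On the log2 scale the difference was −0.58 (standard error 0.14, edgeR adjusted p = 0.216, DESeq2 adjusted p = 0.00619). Without IR+NC-LV replicate 3, the log2 fold change of TRIB3 was −0.386.

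CHAC1, which breaks down glutathione and is among the most responsive targets of the ATF4 to CHOP axis, was far lower in level (chromosome 15, 40942137 to 40956518, plus strand). It had 6.13, 4.93 and 7.40 CPM in IR+NC-LV and 3.92, 3.93 and 3.96 CPM in IR+PR-LV. The IR+PR-LV libraries, with 66, 110 and 73 counts, were closer together than counting error would give on average. They lay below every IR+NC-LV library. CHAC1 had the log2 fold change −0.64 (standard error 0.17), which passed the threshold neither with edgeR (adjusted p = 0.276) nor with DESeq2 (adjusted p = 0.262).

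DDIT4 (REDD1), an inhibitor of mTORC1 that responds to ATF4, p53 and glucocorticoids, overlapped between the groups (chromosome 10, 72273924 to 72276036, plus strand). It had 83.4, 81.7 and 88.0 CPM in IR+NC-LV and 83.5, 69.2 and 71.0 CPM in IR+PR-LV, so that IR+PR-LV replicate 1 stood with the control libraries. Its log2 fold change was −0.18 (standard error 0.08, edgeR adjusted p = 0.487). In GENCODE release 29, 60.6% of the 100-base stretches of its transcript occurred in no other gene, and the rest were shared with DDIT4-AS1 on the opposite strand.

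GDF15, a secreted cytokine of the TGF-beta family that is a target of both ATF4 and p53, had 70.4, 71.8 and 56.9 CPM in IR+NC-LV and 67.9, 64.3 and 51.9 CPM in IR+PR-LV (chromosome 19, 18382170 to 18389176, plus strand). The groups overlapped, and replicate 3 was the lowest library in each. The log2 fold change was −0.12 (standard error 0.12, edgeR adjusted p = 0.774), and leaving out 1 library at a time gave values from −0.21 to −0.00904.

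ASNS encodes asparagine synthetase, a classical ATF4 target, and was close to the detection limit as listed (chromosome 7, 97851677 to 97928441, minus strand). It had 9, 12 and 19 counts in IR+NC-LV and 10, 16 and 6 in IR+PR-LV, and its log2 fold change was −0.64 (standard error 0.44, edgeR adjusted p = 0.651). The count of this entry does not measure the gene as a whole, since 2247 of its 3233 exon bases (69.5%) lie in the read-through gene CZ1P-ASNS on the same strand. CZ1P-ASNS had 94, 119 and 74 counts in IR+NC-LV and 82, 172 and 89 in IR+PR-LV, with a log2 fold change of −0.06 (edgeR adjusted p = 0.915). With both entries added together, an alternative chosen after the data were seen, the log2 fold change of ASNS was −0.126.

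SESN2, a p53 and ATF4 target that inhibits mTORC1, could not be read from its chromosome entry, which had 1, 1 and 0 counts in IR+NC-LV and 0 in each IR+PR-LV library (chromosome 1, 28259452 to 28282491, plus strand). The scaffold copy had 87, 192 and 54 counts in IR+NC-LV and 50, 135 and 200 in IR+PR-LV, or 5.18, 9.10 and 3.88 CPM against 2.97, 4.82 and 10.9 CPM. The libraries of each group spread more than the groups differed, and the log2 fold change was 0.02 (standard error 0.45, edgeR adjusted p = 0.993). On the same scaffold, ATP5IF1 also had nearly all of its counts in the copy (1003 against 4 on the chromosome), with 595 of them in IR+NC-LV replicate 3, whereas DNAJC8 had 586 in the copy and 19602 on the chromosome. How reads that match in several places were counted is not given in the sources used here, so the SESN2 value is uncertain.

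Over the set, 7 of the 9 members other than ATF3 were lower in IR+PR-LV and 2 were higher, with a median log2 fold change of −0.34 against 0.00444 for all genes tested, of which 48.9% were lower. Without IR+NC-LV replicate 3 that median was −0.214. With edgeR, 10 of the 15340 genes passed an adjusted p of 0.05 (0.0652%), and 7 of them were lower (0.0456%). ATF3, which chose the set, was among the 7, and none of the other 9 members was (adjusted p from 0.192 to 0.993). With 1 library left out the number of genes past the threshold lay between 1 and 28, and ATF3 was not among them without replicate 1 of IR+NC-LV or without any 1 of the IR+PR-LV libraries. At an unadjusted p under 0.05, 4 of the 9 were lower (DDIT3, PPP1R15A, TRIB3 and CHAC1), against 5.97% of all genes. With DESeq2, 3 of the 9 passed and were lower (DDIT3, PPP1R15A and TRIB3), as did 0.756% of all genes. Every IR+PR-LV library was below every IR+NC-LV library in 4 of the 9, against 9.54% of all genes. The members were listed with this comparison known, so nothing is read from these shares or from the calls of ATF3.

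**Figure D2:**
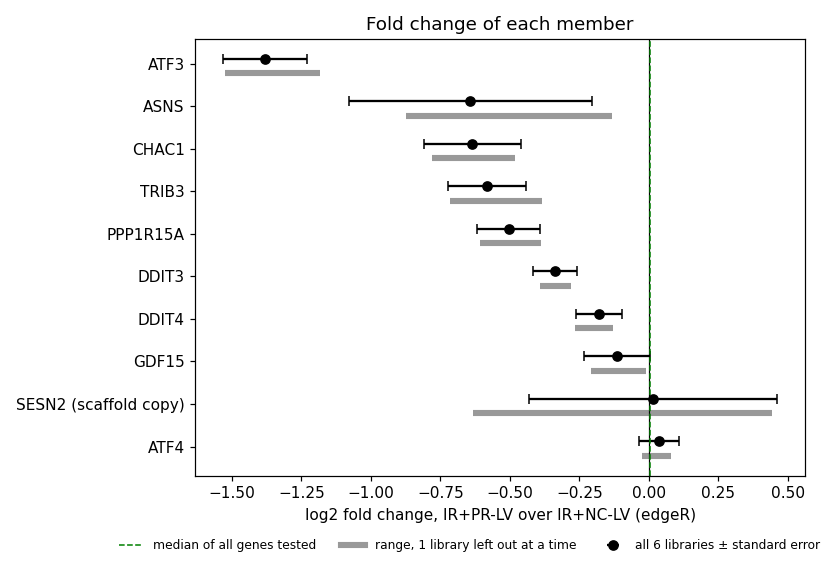
Log2 fold change of each member, IR+PR-LV over IR+NC-LV (horizontal axis), from edgeR with all 6 libraries (points, bars are the standard error) and the range when 1 library is left out at a time (grey). The dashed line is the median of all genes tested (0.00444). The grey ranges of ATF4 and SESN2 cross 0, and those of the other 8 members lie below it.

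The levels of the members were compared per length, as TPM (counts divided by listed exon length and scaled to a common sum). In IR+NC-LV the order ran from PPP1R15A (315 ± 58.3 TPM, SD, n = 3) to DDIT3 (174 ± 21.4), DDIT4 (161 ± 13.8), GDF15 (128 ± 10.4), ATF4 (104 ± 0.82), TRIB3 (74.6 ± 20.8) and ATF3 (71.1 ± 20.2), with the scaffold copy of SESN2 (5.73 ± 2.37), CHAC1 (3.38 ± 0.83) and ASNS (0.86 ± 0.53) far below. The libraries of PPP1R15A did not overlap with those of DDIT3, nor did DDIT4 with GDF15, GDF15 with ATF4 or ATF4 with TRIB3. DDIT3 and DDIT4 overlapped, as did TRIB3 and ATF3, and SESN2 and CHAC1. In IR+PR-LV the order of the first 7 was the same by group mean except that DDIT4 (138 ± 14.4 TPM) stood just above DDIT3 (134 ± 7.47 TPM), whose libraries overlapped. TRIB3 and ATF3 were separate there, at 46.2 to 50.9 TPM and 24.1 to 28.1 TPM. Among all tested genes, the IR+NC-LV level of PPP1R15A was at the 96.6th percentile, that of ATF3 at the 81.5th and that of CHAC1 at the 22.9th. The levels of ATF4 and ASNS carry the shared bases described above. The listed exon bases were also far more than the longest coding transcript for ATF4 (7716 against 2019), CHAC1 (6081 against 1849) and ATF3 (3677 against 2033). They were near it for PPP1R15A (2350 against 2378) and DDIT4 (1744 against 1748). The order, the overlaps and the percentiles therefore hold for the listed lengths, and may differ per base of transcript.

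**Figure D3:**
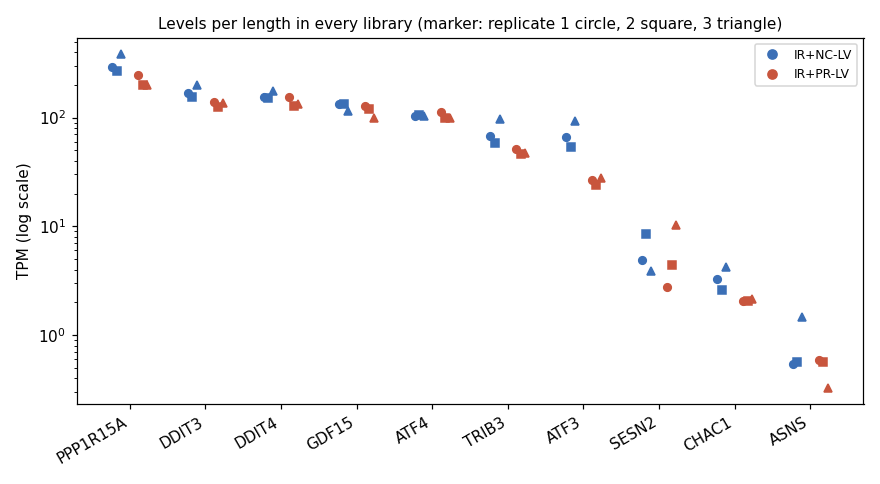
Level per listed exon length of each member in TPM (vertical axis, log scale) in every library, with IR+NC-LV in blue and IR+PR-LV in red and marker shapes for the replicate number. PPP1R15A stood highest in each library, and CHAC1 and ASNS lowest with the scaffold copy of SESN2, while TRIB3 and ATF3 overlapped in IR+NC-LV and separated in IR+PR-LV.

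How the members varied among libraries of the same group is a measure that the choice of the set did not use. Each library was expressed as its log2 CPM minus the mean of its group. ATF3 stood at −0.05, −0.30 and 0.36 in IR+NC-LV replicates 1 to 3, TRIB3 at −0.09, −0.27 and 0.35, and CHAC1 at 0.01, −0.29 and 0.28. DDIT3 and PPP1R15A had the same order, with 0.12 and 0.22 in replicate 3. These 5 members and DDIT4 were all highest in IR+NC-LV replicate 3 and lowest in replicate 2. ATF4, GDF15 and the scaffold copy of SESN2 had the opposite order, highest in replicate 2 and lowest in replicate 3 (−0.08, −0.21 and −0.54 there).

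For ATF3, TRIB3 and CHAC1 the largest deviations over the 6 libraries were those in IR+NC-LV. In IR+PR-LV replicates 1 to 3, ATF3 stood at 0.03, −0.11 and 0.08 and TRIB3 at 0.09, −0.04 and −0.05. PPP1R15A was at 0.20, −0.09 and −0.11 there, and CHAC1 stayed between −0.00473 and 0.00846. The r of CHAC1 and TRIB3 with ATF3 therefore rests mainly on IR+NC-LV. Pearson's r of the deviations with those of ATF3 was 0.949 for CHAC1, 0.940 for TRIB3, 0.925 for DDIT3 and 0.741 for PPP1R15A, but −0.417 for SESN2, −0.514 for ATF4 and −0.725 for GDF15. ATF4 and GDF15 had r = 0.845 with each other. Of the 36 pairs among the 9 members with a mean of at least 1 CPM, 19 were positive, with a median of 0.141. These are descriptions over 6 libraries, of which the points share depth and preparation, and after the group means are removed few values are free. Of 13956 other genes, 259 (1.86%) had an r with ATF3 as high as that of CHAC1, 321 (2.30%) as high as that of TRIB3, 430 (3.08%) as high as that of DDIT3 and 1832 (13.1%) as high as that of PPP1R15A. For DDIT4, with r = 0.445, the number was 3941 (28.2%). IR+NC-LV replicate 3, where these members were highest, was also the library with the fewest counts. Over all tested genes its log2 CPM had r of 0.9866 to 0.9893 with the other libraries, against 0.9885 to 0.994 among those, and the part of either in this order was not tested.

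**Figure D4:**
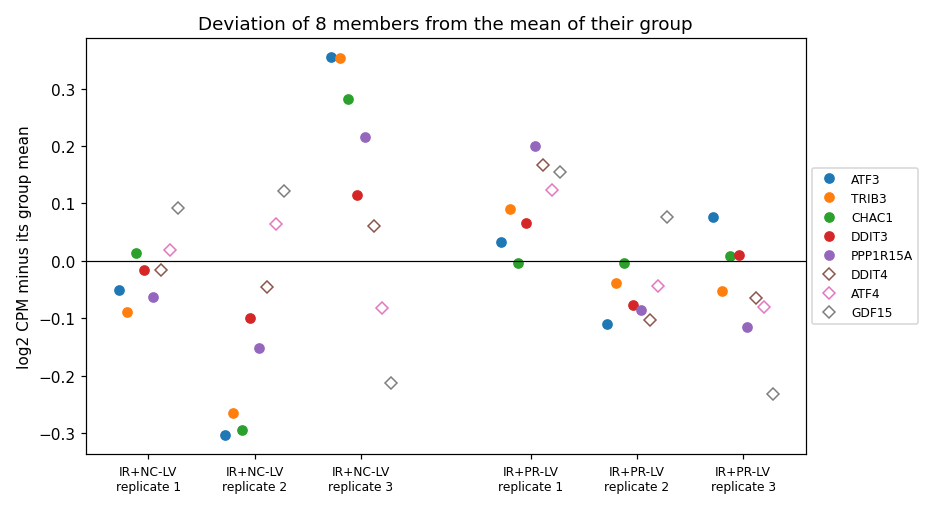
Log2 CPM of 8 members minus the mean of their group (vertical axis) in each of the 6 libraries (horizontal axis). Filled points are ATF3, TRIB3, CHAC1, DDIT3 and PPP1R15A, and open points are DDIT4, ATF4 and GDF15. In IR+NC-LV the filled points lay lowest in replicate 2 and highest in replicate 3, where GDF15 was lowest at −0.21.

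The size of the spread within groups differed among members. Set against 500 genes of similar mean CPM, the within-group SD of ATF3 (0.25 on the log2 scale) was at the 97.6th percentile, and those of TRIB3 (0.23) and PPP1R15A (0.18) were at the 97th and 95.6th. The scaffold copy of SESN2 (0.79) was at the 95.2th and GDF15 (0.20) at the 94th. ATF4 (0.09) and CHAC1 (0.20) were both at the 53.8th percentile and DDIT3 (0.09) at the 43.4th. For ATF3, TRIB3 and CHAC1 the spread was mainly in IR+NC-LV, where the coefficients of variation were 23.5%, 22.9% and 20.1%, against 6.70%, 5.53% and 0.523% in IR+PR-LV. The last value rests on 66, 110 and 73 counts, is below what counting error alone gives on average, and is not read as low variation.

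The genes whose log2 CPM followed that of ATF3 most closely over all 6 libraries, among 13956 that were not members, were NR1D1 (r = 0.999), SOCS2 (0.997), NEDD4L (0.996), GADD45G (0.995) and VAMP2 (0.995). NR1D1 encodes the clock repressor REV-ERB alpha, and its log2 fold change of −1.38 was the same as that of ATF3 to 2 decimals. GADD45G, a stress-inducible relative of GADD45A, had a log2 fold change of −1.22 and SOCS2, a suppressor of cytokine signaling, one of −0.73. After the group means were removed, the closest genes were others, F2RL2 (0.998), ARID2 (0.997), IL1RL2 (0.997), ZNF778 (0.997) and LINC00174 (0.997), with log2 fold changes between −0.29 and 0.03. The likeness is Pearson's r over 6 libraries and is given without a test. Before the group means are removed it includes the group difference of ATF3 that chose the set. Genes that were also lower in IR+PR-LV can rank high for that reason, so nothing is read from those ranks.

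The rest of the pathway was described from 9 lists of known pathway genes, which were not picked for how their genes moved but were written with earlier results of these data known. On the input side of the response, the 18 genes of the eIF2 kinases and translation control were 13 higher and 5 lower, with a median log2 fold change of 0.07. None passed the edgeR threshold or that of DESeq2, and 1 was lower at an unadjusted p under 0.05 (PPP1R15B, the lowest of the list, against 5.97% of all genes). Every IR+PR-LV library stood above every IR+NC-LV library in 5 of them, against 7.46% of all genes. The highest was EIF2AK1, the heme-regulated kinase (log2 fold change 0.14, standard error 0.06, edgeR adjusted p = 0.484).

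On the output side, 6 of 10 amino acid and one-carbon enzymes were lower and 4 higher (median −0.06), and 4 had an unadjusted p under 0.05, all of them lower, against 5.97% of all genes. CTH, which makes cysteine from cystathionine, had 27.4, 24.6 and 35.4 CPM in IR+NC-LV and 15.2, 16.7 and 18.5 CPM in IR+PR-LV. Its groups did not overlap, and its log2 fold change of −0.79 (standard error 0.14) missed the edgeR threshold (adjusted p = 0.0933) and passed that of DESeq2 (adjusted p = 0.000118), the only gene of the list to do so, against 0.756% of all genes. At the other end, PYCR1, an enzyme of proline synthesis, had a log2 fold change of 0.13 (edgeR adjusted p = 0.599).

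Of the 9 amino acid transporters 8 were tested, and 7 were lower and 1 higher, with a median of −0.16. None passed with edgeR, 2 had an unadjusted p under 0.05, both lower (5.97% of all genes), and 1, also lower, passed with DESeq2 (0.756% of all genes). SLC7A11, the cystine importer, had 59.5, 54.9 and 107 CPM in IR+NC-LV and 42.8, 39.2 and 52.6 CPM in IR+PR-LV. Here too IR+NC-LV replicate 3 stood above the rest. Its log2 fold change was −0.72 (standard error 0.23, edgeR adjusted p = 0.370), and −0.351 without that library. SLC3A2, the heavy chain that pairs with SLC7A11, was the gene that passed with DESeq2 and is named after its values were seen (log2 fold change −0.56, edgeR adjusted p = 0.216, DESeq2 adjusted p = 0.00274). SLC38A2, the neutral amino acid transporter SNAT2, was the highest at 0.10 (edgeR adjusted p = 0.681).

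The 13 genes of tRNA charging and export were 9 lower and 4 higher (median −0.10). None passed with edgeR, 3 were lower and 2 higher at an unadjusted p under 0.05 (5.97% and 4.55% of all genes), and 1, lower, passed with DESeq2 (0.756% of all genes). That gene was AARS1, the alanyl-tRNA synthetase, at −0.41 on the log2 scale (standard error 0.10, edgeR adjusted p = 0.210, DESeq2 adjusted p = 0.0114). NARS1, the asparaginyl-tRNA synthetase, was the highest at 0.20 (edgeR adjusted p = 0.322). Among 14 tested of 15 other ATF4 and CHOP targets, 12 were lower and 2 higher (median −0.12), 2 had an unadjusted p under 0.05, both lower (5.97% of all genes), and none passed with edgeR or DESeq2. NUPR1, a small stress-induced chromatin protein, was the lowest (−0.63, standard error 0.31, edgeR adjusted p = 0.508) at 1.78 ± 0.524 and 1.14 ± 0.379 CPM (n = 3) with overlapping groups. ERO1A, the oxidase of disulfide formation, was the highest at 0.12 (edgeR adjusted p = 0.618).

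The ATF6 and XBP1 branches of the unfolded protein response, which have endoplasmic reticulum sensors of their own beside the kinase that feeds ATF4, were 13 higher and 5 lower of 18 (median 0.07). None passed with edgeR, and 3 were higher and 2 lower at an unadjusted p under 0.05 (4.55% and 5.97% of all genes). With DESeq2, 1 passed and was higher, as did 0.372% of all genes. HSP90B1, the chaperone GRP94, had 1880, 2044 and 1829 CPM in IR+NC-LV and 2372, 2281 and 2343 CPM in IR+PR-LV with no overlap. Its log2 fold change was 0.28 (standard error 0.06, edgeR adjusted p = 0.169, DESeq2 adjusted p = 0.00213). XBP1 was the lowest of the list (−0.24, standard error 0.06, edgeR adjusted p = 0.272).

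The closest relatives of the members were 6 lower and 2 higher of 8 tested among 9 (median −0.14), with 1 lower at an unadjusted p under 0.05 (PPP1R15B, against 5.97% of all genes) and none past the threshold with edgeR or DESeq2. They ranged from SESN3 (−0.38, standard error 0.23, edgeR adjusted p = 0.591) to TRIB2 (0.09, standard error 0.21, edgeR adjusted p = 0.905), and TRIB2 was at −0.0355 without replicate 2 of IR+NC-LV. Of the 11 bZIP proteins that can pair with ATF3, 8 were lower and 3 higher (median −0.10), with 3 lower at an unadjusted p under 0.05 (5.97% of all genes) and none past the threshold with edgeR or DESeq2. FOS was the lowest (−0.26, standard error 0.15, edgeR adjusted p = 0.579) and JUND the highest (0.23, standard error 0.17, edgeR adjusted p = 0.685).

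The p53 targets were included because radiation can activate p53 and because ATF3, SESN2, DDIT4 and GDF15 are also known to respond to it. The activity of p53 in these cells was not measured here. Of 21 genes 14 were lower and 7 higher (median −0.11), 6 were lower at an unadjusted p under 0.05 (5.97% of all genes), and 1, also lower, passed the threshold with edgeR (0.0456% of all genes) and with DESeq2 (0.756%). That gene was GADD45A, a growth arrest gene that is a target of both p53 and ATF4. It had 233, 201 and 283 CPM in IR+NC-LV and 119, 119 and 115 CPM in IR+PR-LV, with no overlap and the same order among the IR+NC-LV libraries as ATF3. The log2 fold change was −1.02 (standard error 0.11, edgeR adjusted p = 0.0173), and the adjusted p rose to at most 0.121 with 1 library left out, where it passed the threshold only without IR+NC-LV replicate 2 or 3. With the replicate number as a block the adjusted p was 0.0552. CCNG1, cyclin G1, was the highest of the list at 0.13 (standard error 0.12, edgeR adjusted p = 0.731). Some genes stand in 2 lists, so that the counts of different lists are not independent.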

How the data were processed

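Bulk RNA-seq of poly(A) RNA (paired-end reads, low-quality and adapter reads removed by the authors) was deposited per library as counts of reads per gene, with TPM and FPKM values that the authors derived from the same counts and the exon length of each gene. The labels name featureCounts 2.0.1, DESeq2 1.16.1, CASAVA and hg38. The aligner, annotation, strand setting and handling of multiply mapped reads are not given in the sources used here. The counts were tested with edgeR 4.0.16 in R 4.3.3: filterByExpr (minimum count 10, minimum total 15), TMM normalization (factors from 0.9814 to 1.038), the quasi-likelihood test on all 6 libraries without covariates, and Benjamini-Hochberg adjustment over 15340 genes and gene copies (threshold 0.05). The biological coefficient of variation was 0.106. CPM values are TMM-scaled, and standard errors come from the fold change and the F statistic. Deviations used log2 CPM with a prior count of 2. A count of 0 allows up to 3 counts, or 0.105 to 0.224 CPM per library, and intervals cover counting error only. For a name with several copies, the one with the highest total count stood for the gene in a list. The members and lists were chosen with earlier results of these data known. Named genes are the members, PRDM16, in each list those past the threshold and the lowest and highest, and the 5 most like ATF3 by each measure. The alternatives were RLE and upper-quartile factors, DESeq2 1.42.0, no filter beyond 1 count, at least 10 counts in every library, other thresholds, the replicate number as a block and each library left out. Summing gene copies and summing ASNS with CZ1P-ASNS were added after the data were seen. The edgeR procedure was also run on simulated counts with the same dispersion for every gene. The spread of the members differed in these data, so nothing about them rests on that run.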

Additional observations from a re-analysis of the deposited data

How the results depend on the processing

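Over the alternatives tried, 105 of 121 values of single members kept their direction and their side of the edgeR threshold. The number of genes past the threshold was 10, and 342 with no filter beyond 1 count, 173 with DESeq2, 1 at an adjusted p under 0.01 and 58 under 0.10. With 1 library left out the count lay between 1 (replicate 1 of IR+NC-LV or replicate 3 of IR+PR-LV removed) and 28 (replicate 2 of IR+NC-LV removed), and was 16 with replicate 3 of IR+NC-LV removed. The number of members past it was 1, and 4 with no filter or with DESeq2, 0 at an adjusted p under 0.01, and 0 to 1 with 1 library left out, being 0 with replicate 1 of IR+NC-LV or any library of IR+PR-LV removed. ATF3, which chose the set, is described here without a test. It stayed lower throughout, from −1.53 to −1.18 with 1 library left out. The same libraries chose it, so nothing is read from this or from its side of the threshold. The cause of these differences was not tested, and a fit with 1 library left out also has fewer libraries.

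The labels do not say whether the replicate numbers pair the libraries. Deviations of same-numbered libraries had r of −0.00884, 0.0514 and 0.0706, and not every library was closest to its own number. With so few libraries these values cannot settle whether a pairing exists. With the number as a replicate block, 3 genes passed the threshold, ATF3 was at −1.36, and SESN2 changed sign to −0.104.

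With 1 library left out, SESN2 ranged from −0.632 (replicate 3 of IR+PR-LV removed) to 0.443, being also negative with replicate 1 (−0.0951) or 3 (−0.214) of IR+NC-LV removed. ATF4 ranged from −0.0248 (replicate 1 of IR+PR-LV removed) to 0.0780, and was at −0.000164 with replicate 3 of IR+NC-LV removed. TRIB2 ranged from −0.0355 (replicate 2 of IR+NC-LV removed) to 0.256. GADD45A lost the threshold with the block (−1.004, adjusted p = 0.0552) and without 4 of the libraries, as ATF3 did without the same 4. The median of the members other than ATF3 ranged from −0.439 to −0.214 with 1 library left out. List medians moved beyond their spread over libraries for the eIF2 kinases and translation control (0.0637 with upper-quartile factors, 0.0840 with no filter, 0.0548 to 0.0862 with 1 library left out), and with 1 library left out for the amino acid and one-carbon enzymes (−0.110 to −0.0280), the other ATF4 and CHOP targets (−0.166 to −0.115), the bZIP partners (−0.176 to −0.0740) and the p53 targets (−0.136 to −0.0743). None of these medians changed sign. The log2 ratio of PRDM16 ranged from 2.50 to 3.91 and rests on 3 counts in IR+NC-LV. Low counts limit the precision of ASNS and PRDM16. The read-through gene of ASNS and the scaffold copy of SESN2 limit what the counts of both genes mean.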
